A study of Mus musculus with 6 samples.

Results

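The genes described here are 8 transcription factors of the developing GABAergic forebrain, *Dlx1*, *Dlx2*, *Dlx5*, *Dlx6*, *Sp9*, *Pax6*, *Tshz1* and *Zic1*, in the prefrontal cortex of *Pla2g4e* knockout and wild-type mice. They were picked by name as regulators of interneuron lineages that arise in the ganglionic eminences or settle in the olfactory bulb, after results of these data were known. They make up 8 of the 56923 genes in the count files, and 8 of 8 passed the filter on low counts that left 19084 genes for testing. Because the difference between knockout and wild type took part in their choice, their values are given as a description and no test is read for any of them. RNA came from 3 constitutive knockout samples (KO) and 3 wild-type samples (WT). The KO mice carried the gene-trap allele C57BL/6N-*A* tm1Brd *Pla2g4e* tm2a, a LacZ gene trap designed to stop the gene from making its protein. Any such allele acts in all cells from conception, and the strain of the WT samples is not given in the labels. The product of *Pla2g4e* is a cytosolic phospholipase A2 that needs calcium. The labels give neither age nor sex for these samples, do not say whether each came from a different mouse, and the study used males and females. The tissue that the study dissected as prefrontal cortex was the frontal end of the brain, and the libraries were stranded and made from polyadenylated RNA.

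GABAergic neurons of the forebrain are born in the ganglionic eminences of the embryo, and a later wave of progenitors in the wall of the lateral ventricle keeps sending neuroblasts to the olfactory bulb in adult rodents. The DLX homeodomain proteins are expressed early in these lineages and act on each other's genes and on genes of GABA synthesis. Expression of some of these factors persists in mature interneurons of the cortex, striatum and bulb, at lower levels than in progenitors.

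The 6 libraries held between 11792463 and 14594230 fragments assigned to genes, and 0 of 19084 genes (0%) passed the adjusted p-value threshold of 0.05 in limma-voom, a linear model of log2 counts fitted across all genes. At an unadjusted p-value under 0.05 the same fit had 1492 genes (7.82%), and DESeq2 called 1 gene at its adjusted threshold. These p-values measure only the spread between these samples. The targeted gene *Pla2g4e* was at 5.95, 8.12 and 7.97 CPM (counts per 1000000 TMM-scaled fragments of a library) in KO, against 7.84, 11.3 and 13.2 CPM in WT. These ranges overlapped, and transcript was counted in every KO library, so directions here follow the labels. *Xist* had 20521 fragments in KO replicate 1 and 12365 in WT replicate 1, as labelled, with no more than 3 elsewhere.

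KO replicate 1 had the highest value and WT replicate 2 the lowest value of the 6 libraries for 8 of the 8 transcription factors. Over all tested genes, KO replicate 1 was highest for 22.1%, WT replicate 2 was lowest for 18.8%, and both held for 7.01%. The log2 fold change of KO over WT was above 0 for 8 of 8 factors, against 51.9% of all tested genes, and its median was 0.69 against 0.01 for all tested genes. Adjusted p-values of the 8 in limma-voom, given as a description, were 0.635 to 0.755. Without KO replicate 1 the median was 0.30, and 6 of 8 were above 0. In bulk tissue, more cells of a type and more RNA per cell cannot be told apart.

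**Figure D1:**
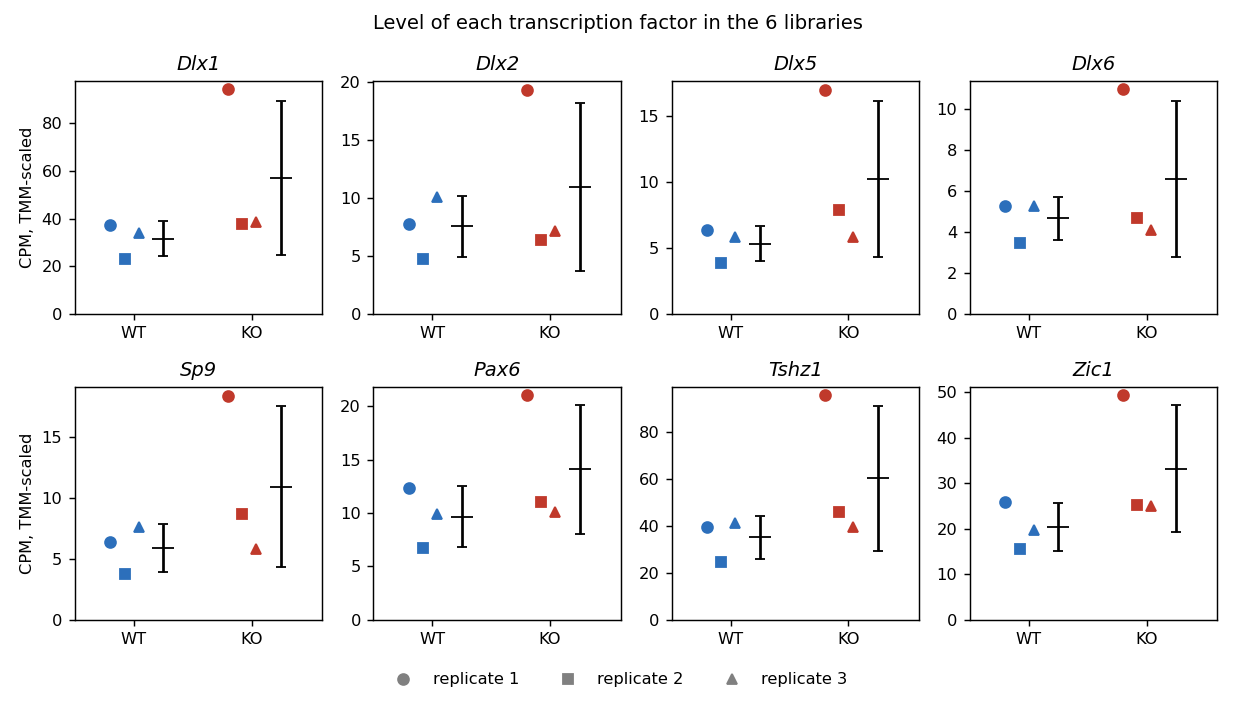
Level of each of the 8 transcription factors in the 6 libraries, in TMM-scaled CPM on a linear axis from 0. Symbols mark the replicate number, blue is WT and red is KO, and bars are the mean ± SD of 3 libraries. KO replicate 1 (red circle) is highest and WT replicate 2 (blue square) is lowest in each panel.

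Promoter stretches of 4 of the factors are shown, those with a matched window that lay wholly or mostly outside annotated exons. Likeness of level from library to library did not choose them, and a link between these stretches and the levels was not tested. RefSeq promoter windows on mouse build GRCm38.p6 were matched for 5 of the 8 factors. None was matched for *Dlx5* or *Dlx6*, and the chromosome of *Tshz1* was left out of the search. Each stretch below is part of the 250 bases before the start, lies outside annotated exons (GENCODE M21), and is written 5′ to 3′ on the strand of its gene. Capitals mark a GC box, GGGCGG or its reverse complement CCGCCC, a sequence that zinc finger proteins of the SP family bind. The first is *Dlx2*, chr2:71546755-71547004 on the minus strand.
Dlx2: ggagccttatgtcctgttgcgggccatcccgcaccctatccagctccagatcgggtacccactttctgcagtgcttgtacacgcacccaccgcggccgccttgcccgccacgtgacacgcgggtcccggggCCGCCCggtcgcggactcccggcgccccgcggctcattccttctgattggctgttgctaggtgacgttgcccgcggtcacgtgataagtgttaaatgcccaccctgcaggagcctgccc
The second is *Sp9*, chr2:73271676-73271924 on the plus strand.
Sp9: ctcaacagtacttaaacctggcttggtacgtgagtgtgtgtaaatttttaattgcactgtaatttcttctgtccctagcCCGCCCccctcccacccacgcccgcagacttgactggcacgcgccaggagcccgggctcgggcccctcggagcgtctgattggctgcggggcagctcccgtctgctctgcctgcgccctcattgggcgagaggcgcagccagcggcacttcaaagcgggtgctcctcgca
The third is *Pax6*, chr2:105668646-105668895 on the plus strand.
Pax6: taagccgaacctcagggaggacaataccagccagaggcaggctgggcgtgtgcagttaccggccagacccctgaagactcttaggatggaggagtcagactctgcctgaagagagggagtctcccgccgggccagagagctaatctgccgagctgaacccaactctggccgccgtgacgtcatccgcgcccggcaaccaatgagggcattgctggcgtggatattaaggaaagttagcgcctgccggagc
The last is *Zic1*, chr9:91365811-91366018 on the minus strand.
Zic1: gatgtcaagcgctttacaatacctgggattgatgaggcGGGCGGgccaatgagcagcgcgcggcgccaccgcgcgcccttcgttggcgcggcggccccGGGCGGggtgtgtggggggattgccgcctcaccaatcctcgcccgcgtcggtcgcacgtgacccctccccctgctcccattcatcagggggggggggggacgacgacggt

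These 4 stretches were rich in G and C, from 60.8% in *Pax6* and 62.2% in *Sp9* to 66.4% in *Dlx2* and 71.2% in *Zic1*, against a median of 52.4% over 32851 mouse promoter windows of 250 bases. They held 24 CpG dinucleotides in *Dlx2*, 18 in *Sp9*, 15 in *Pax6* and 26 in *Zic1*, where the median window held 6. A GC box on either strand was found once in *Dlx2*, once in *Sp9*, 2 times in *Zic1* and not in *Pax6*, and 32.7% of all windows held one. Neither the homeodomain core TAATTA, found in 4.84% of all windows, nor TATAAA, found in 12.4%, was present on either strand of the 4 stretches. The *Zic1* stretch is 208 bases, so these shares refer to a longer window than that one. The windows of *Dlx1* (68% G and C) and of a second *Pax6* start (47.6%) held none of the 3 motifs and are not printed, because they lie within annotated exons. A match is a string of letters, and its absence says only that these letters are not in the stretch.

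*Dlx1* and *Dlx2* are a convergent pair on chromosome 2, with *Dlx1* (ENSMUSG00000041911.4) at 71358457 to 71364325 on the plus strand of GRCm39 and *Dlx2* (ENSMUSG00000023391.9) at 71373752 to 71377098 on the minus strand, 9426 bases apart. Both encode homeodomain proteins that start the GABAergic programme in the ganglionic eminences, and *Dlx1* is also kept in some mature cortical interneurons. *Dlx1* was at 94.3, 37.9 and 38.6 CPM in KO replicates 1 to 3 and at 37.4, 23.2 and 33.9 CPM in WT replicates 1 to 3, from 283 to 1395 fragments. The groups did not overlap, but KO replicates 2 and 3 lay just above WT replicate 1. *Dlx1* was the only one of the 8 factors whose 3 KO libraries were all above the 3 WT libraries, a pattern found in 6.72% of all tested genes. The opposite, all KO below all WT, held for 0 of the 8 and for 6.29% of all tested genes. Group means were 56.9 ± 32.4 CPM in KO against 31.5 ± 7.42 CPM in WT (SD, n = 3 each), with a log2 fold change of 0.76 (SE 0.30).

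*Dlx2* was at 19.3, 6.37 and 7.11 CPM in KO, against 7.76, 4.75 and 10.05 CPM in WT. The groups overlapped, and KO replicates 2 and 3 were both below WT replicates 1 and 3. Its means were 10.9 ± 7.24 CPM in KO against 7.52 ± 2.66 CPM in WT (SD, n = 3 each), with a log2 fold change of 0.46 (SE 0.39). *Dlx2* was the factor farthest from the shared pattern of the other 7, with a root mean square difference of 0.24 on the log2 scale, against 0.06 for *Tshz1*, the closest. Per kilobase of exon, the ratio of *Dlx1* to *Dlx2* took values of 2.59, 3.15 and 2.87 in KO, against 2.55, 2.58 and 1.79 in WT.

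The pair shares its locus with *Dlx1as*, a transcript on the strand opposite to *Dlx1* that covers 2339 of the exon bases of *Dlx1* (43.3%). Fragments were counted by strand, per the file headers, so those of the overlap were assigned to the gene of their own strand. *Dlx1as* was at 28.5, 22.9 and 22.4 CPM in KO, against 21.2, 20.1 and 27.8 CPM in WT. KO replicate 1 was again highest and WT replicate 2 lowest, with a log2 fold change of 0.11 (SE 0.14) that is lower than that of *Dlx1*. *Metap1d*, a methionine aminopeptidase gene 2918 bases from *Dlx1*, was at 33.0 ± 5.13 CPM in KO against 24.2 ± 2.44 CPM in WT (SD, n = 3 each). Its log2 fold change was 0.45 (SE 0.12), and 0.32 without KO replicate 1. Its 3 KO libraries were all above its 3 WT libraries, a pattern found in 6.72% of all tested genes.

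*Dlx5* and *Dlx6* are the second pair, on chromosome 6, with *Dlx6* (ENSMUSG00000029754.14) at 6863334 to 6868568 on the plus strand and *Dlx5* (ENSMUSG00000029755.11) at 6877805 to 6882085 on the minus strand, 9236 bases apart. They act after *Dlx1* and *Dlx2* in the same lineages. *Dlx5* was at 17.03, 7.87 and 5.86 CPM in KO, against 6.35, 3.85 and 5.81 CPM in WT, from 47 to 252 fragments. KO replicate 3 lay between WT replicates 3 and 1, so the groups overlapped. The means of 10.3 ± 5.96 and 5.33 ± 1.32 CPM (SD, n = 3 each) gave a log2 fold change of 0.86 (SE 0.36), the highest estimate of the 8.

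*Dlx6* was at 10.9, 4.69 and 4.06 CPM in KO, against 5.25, 3.44 and 5.26 CPM in WT, from 42 to 162 fragments. As for *Dlx2*, KO replicates 2 and 3 were below WT replicates 1 and 3. The means were 6.57 ± 3.81 CPM in KO against 4.65 ± 1.05 CPM in WT (SD, n = 3 each), with a log2 fold change of 0.42 (SE 0.34), the lowest of the 8. Per kilobase of exon the ratio of *Dlx5* to *Dlx6* took values of 1.63, 1.76 and 1.51 in KO, against 1.27, 1.17 and 1.16 in WT. This ratio did not overlap between the groups, although neither gene separated them on its own in all libraries. How often ratios of other gene pairs do so was not computed, and *Dlx6* had as few as 42 fragments in a library. No test was made of the ratio, and nothing is read from it. The antisense transcript *Dlx6os1*, which shares no exon bases with *Dlx6* or *Dlx5*, was at 67.8, 39.1 and 28.3 CPM in KO, against 27.7, 21.0 and 30.3 CPM in WT. The log2 fold change of *Dlx6os1* was 0.71 (SE 0.26), and 0.34 without KO replicate 1.

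*Sp9* (ENSMUSG00000068859.6, chromosome 2, 73102269 to 73115050, plus strand) lies 1725170 bases from *Dlx2* and encodes a zinc finger protein needed for striatal neurons and bulb interneurons. It was at 18.3, 8.63 and 5.78 CPM in KO, against 6.35, 3.77 and 7.61 CPM in WT, from 46 to 271 fragments. KO replicate 3 was below WT replicates 1 and 3. The means were 10.9 ± 6.57 and 5.91 ± 1.96 CPM (SD, n = 3 each), with a log2 fold change of 0.81 (SE 0.39). WT replicate 2 was at 0.495 of the median of the other 5 libraries, the lowest such ratio among the 8 factors.

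*Tshz1* (ENSMUSG00000046982.12, chromosome 18, 84029752 to 84105831, minus strand) encodes a teashirt zinc finger protein that olfactory bulb interneurons require and that also marks neurons of the striatum. It was at 95.8, 45.9 and 39.5 CPM in KO, against 39.6, 24.8 and 41.4 CPM in WT, from 303 to 1417 fragments. KO replicate 3 lay below WT replicates 1 and 3, so the groups overlapped. The means of 60.4 ± 30.8 CPM in KO against 35.3 ± 9.12 CPM in WT (SD, n = 3 each) gave a log2 fold change of 0.71 (SE 0.29).

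*Pax6* (ENSMUSG00000027168.22, chromosome 2, 105499245 to 105527709, plus strand) encodes a paired-box protein of cortical progenitors that is also needed for dopaminergic interneurons of the bulb. It was at 21.1, 11.1 and 10.2 CPM in KO, against 12.4, 6.71 and 9.89 CPM in WT, from 82 to 312 fragments. WT replicate 1 was the second highest library, and the groups overlapped. The means were 14.1 ± 6.07 and 9.66 ± 2.84 CPM (SD, n = 3 each), with a log2 fold change of 0.53 (SE 0.28).

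*Zic1* (ENSMUSG00000032368.15, chromosome 9, 91240111 to 91247863, minus strand) encodes a zinc finger protein found in septal and bulb lineages. It was at 49.3, 25.1 and 25.1 CPM in KO, against 25.9, 15.6 and 19.7 CPM in WT, from 190 to 730 fragments. KO replicates 2 and 3 lay just under WT replicate 1. The means were 33.2 ± 13.997 and 20.4 ± 5.23 CPM (SD, n = 3 each), with a log2 fold change of 0.67 (SE 0.25). *Zic1* shares 60 exon bases with *Zic4* on the other strand. With a covariate for Y-linked expression its adjusted p-value in limma-voom was 0.0245, and over the other settings of the analysis it reached up to 0.999.

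Of the 8 factors, *Dlx1*, *Dlx5*, *Tshz1* and *Zic1*, or 4 of 8, had an unadjusted p-value under 0.05 in limma-voom in the direction of higher KO, where 4.38% of all tested genes did. The same count was 0 of 8 with DESeq2 (902 genes in either direction) and 8 of 8 with a covariate for Y-linked expression (2023 genes in either direction). It was 0 of 8 without WT replicate 2 (2.29% of all tested genes higher) and 1 of 8 without WT replicate 3 (5.43%). The count was 5 of 8 without KO replicate 2 (4.29%), 6 of 8 without KO replicate 3 (4.9%) and 5 of 8 without WT replicate 1 (3.06%). With a replicate block 6 of 8 had such a p-value in limma-voom (1693 genes in either direction). Nothing is read from this share, since the same contrast chose the genes. Leaving out a library moved each estimate. Without KO replicate 1 the log2 fold changes were 0.30 for *Dlx1*, 0.37 for *Dlx5*, 0.30 for *Sp9*, 0.30 for *Tshz1*, 0.33 for *Zic1*, 0.17 for *Pax6*, -0.07 for *Dlx6* and -0.10 for *Dlx2*, and 0 of 8 had an unadjusted p-value under 0.05, where 2.74% of all tested genes were higher at that level. Without WT replicate 2 they lay between 0.17 for *Dlx2* and 0.64 for *Dlx5*. Without both of these libraries, a choice made after seeing the data, the median was 0.04 and the values ran from -0.39 for *Dlx2* to 0.15 for *Dlx5* and *Zic1*.

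**Figure D2:**
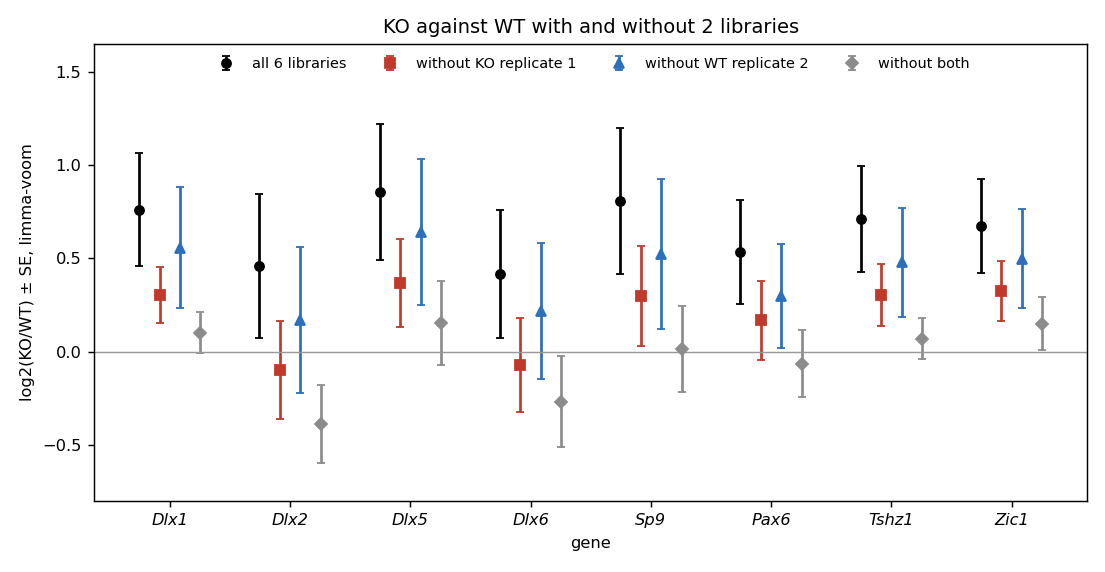
Log2 fold change of KO over WT with its standard error from limma-voom for each transcription factor, with all 6 libraries, without KO replicate 1, without WT replicate 2 and without both. The median over the 8 genes is 0.69 with all libraries and 0.04 without both.

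The size of the gap between libraries was similar from factor to factor. KO replicate 1 was above the next highest library by 1.703-fold for *Pax6* to 2.44-fold for *Dlx1*, and above the median of the other 5 libraries by 1.97-fold for *Zic1* to 2.91-fold for *Dlx5*. A gap of at least 1.5-fold over the next library was present for 8 of 8 factors and for 205 of 15254 genes of at least 1 CPM (1.34%). The second highest library differed between factors. It was KO replicate 2 for *Dlx5*, *Sp9* and *Tshz1*, KO replicate 3 for *Dlx1*, WT replicate 1 for *Pax6* and *Zic1*, and WT replicate 3 for *Dlx2* and *Dlx6*. Mean deviations of log2 CPM from the mean of each gene were 1.14, -0.02 and -0.19 in KO, against -0.06, -0.78 and -0.10 in WT.

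**Figure D3:**
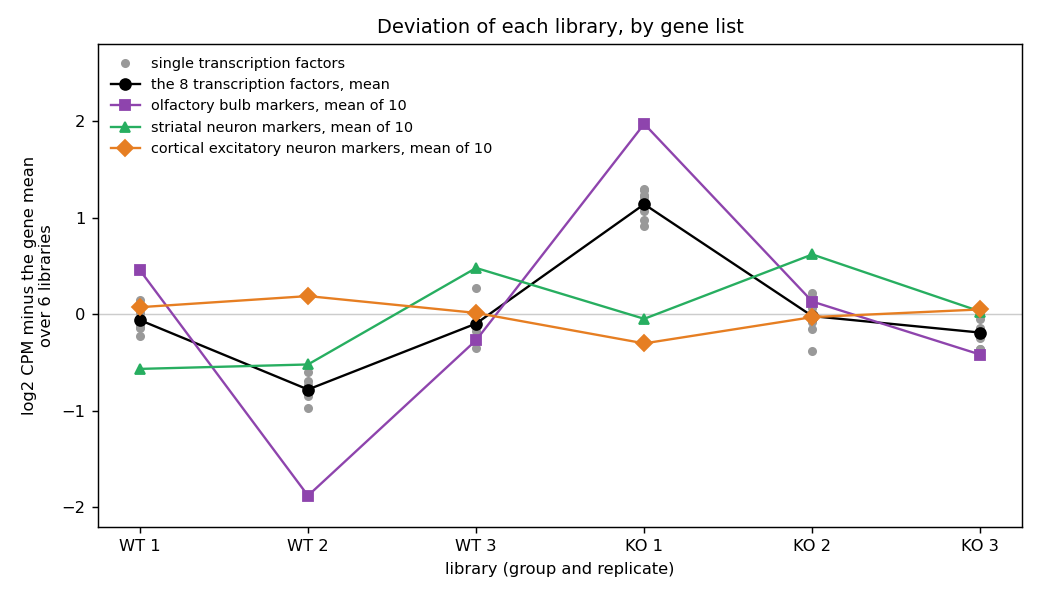
Log2 CPM of each library minus the gene's mean over 6 libraries, for the 8 transcription factors (gray points, black line for their mean) and as means over 10 markers each of olfactory bulb, striatal neurons and cortical excitatory neurons. The factors and the bulb markers are highest in KO replicate 1 (1.14 and 1.97) and lowest in WT replicate 2 (-0.78 and -1.88), and the excitatory markers are lowest in KO replicate 1 (-0.30).

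The spread between libraries of a group was wide for the level of these genes. The SD of log2 CPM within groups was 0.47 for *Zic1*, 0.51 for *Pax6*, 0.56 for *Tshz1*, 0.59 for *Dlx1*, 0.60 for *Dlx6*, 0.62 for *Dlx5*, 0.70 for *Sp9* and 0.73 for *Dlx2*, against a median of 0.14 over genes of at least 1 CPM. Among genes within 2-fold of the same mean level, between 97.1% for *Dlx6* and 99.7% for *Dlx1* had a lower SD. *Dlx1* and *Tshz1*, with the most fragments, had SDs close to that of *Dlx6*, with the fewest.

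**Figure D4:**
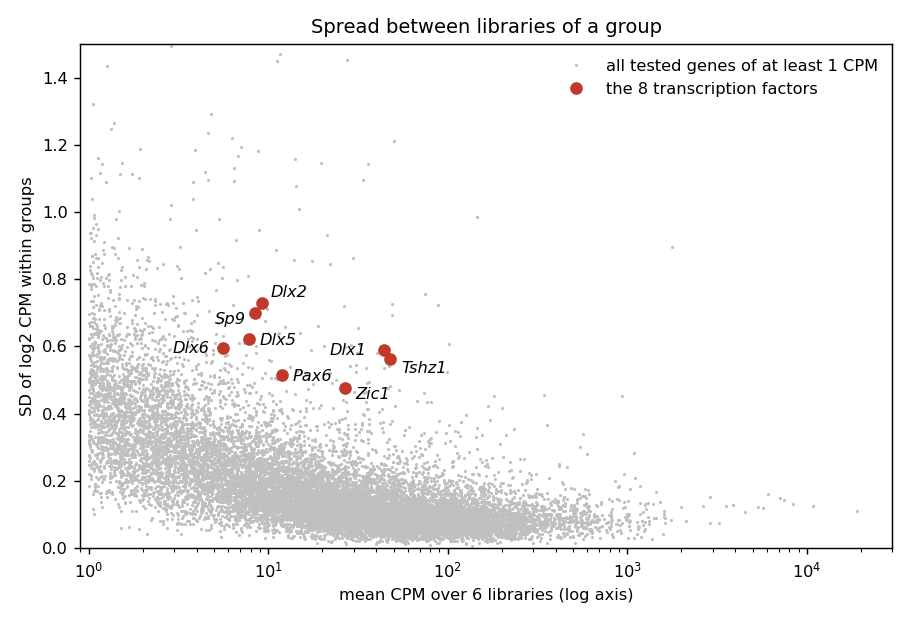
SD of log2 CPM within groups (pooled over KO and WT) against mean CPM on a log axis, for the 8 transcription factors (red) and 15254 tested genes of at least 1 CPM (gray), of which 22 lie above the top of the axis. The 8 factors lie between 0.47 and 0.73, above most genes of their level.

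Levels of different genes were compared as FPKM, which is CPM per kilobase of annotated exon. *Dlx1* was at 10.5 ± 6.0 FPKM in KO and 5.84 ± 1.37 FPKM in WT, and *Tshz1* at 10.3 ± 5.27 and 6.03 ± 1.56 FPKM (SD, n = 3 each). These top 2 could not be ordered, since *Dlx1* was the higher in 4 of 6 libraries. *Zic1* followed with a mean over the 6 libraries of 4.71 FPKM, below *Tshz1* in 6 of 6 libraries. *Dlx5* at 3.44 FPKM was above *Dlx2* at 3.23 FPKM in 5 of 6 libraries, with a mean log2 ratio of 0.08 ± 0.35 (SD, n = 6), so this order was within the spread. *Dlx6* at 2.36, *Sp9* at 1.67 and *Pax6* at 1.02 FPKM came last, each below the one before in 6 of 6 libraries. For *Pax6* the annotated exons add up to 11694 bases, and a transcript that uses fewer of them would have a higher value per length.

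Other transcription factors of the same lineages did not share one pattern. Of 27 on a list of ganglionic eminence and bulb regulators, 23 were tested. At an unadjusted p-value under 0.05, 1 was higher and 3 were lower in KO, where 4.38% and 3.44% of all tested genes were, 0 passed the adjusted threshold in limma-voom, and the median log2 fold change was 0.03. *Sp8*, the close relative of *Sp9*, was at 28.2, 6.03 and 6.09 CPM in KO, against 6.98, 1.56 and 4.003 CPM in WT, with a log2 fold change of 1.58 (SE 0.67). It had the same highest and lowest library as the 8 factors. *Lhx6*, which specifies interneurons from the medial ganglionic eminence, was at 13.7, 15.5 and 14.5 CPM in KO, against 19.0, 19.2 and 16.7 CPM in WT, with a log2 fold change of -0.33 (SE 0.11). For *Lhx6* the groups did not overlap, with KO below WT, and KO replicate 1 was the lowest library. *Satb1*, which acts in interneurons from the same source, had a log2 fold change of -0.24 (SE 0.11). Per kilobase of exon, the ratio of *Dlx1* to *Lhx6* was 6.15 in KO replicate 1 and 1.08 in WT replicate 2, with 1.75 to 2.37 in the other 4 libraries.

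Genes of GABA synthesis, transport and breakdown had KO replicate 1 as the highest library for 5 of 5. *Gad1*, the main enzyme of GABA synthesis and a known target of DLX proteins, was at 581, 304 and 285 CPM in KO, against 363, 238 and 295 CPM in WT. The log2 fold change of *Gad1* was 0.33 (SE 0.22), and 0.00 without KO replicate 1. Per kilobase of exon, *Dlx1* stood at 23.0%, 17.6% and 19.1% of *Gad1* in KO and at 14.6%, 13.8% and 16.3% in WT. Of 14 markers of cortical interneurons, 1 was higher (*Adarb2*) and 4 were lower (*Sst*, *Cck*, *Lhx6* and *Pvalb*) at an unadjusted p-value under 0.05, against 4.38% and 3.44% of all tested genes, and 0 passed the adjusted threshold in limma-voom. KO replicate 1 was highest and WT replicate 2 lowest for 5 of the 14, which were *Adarb2*, *Ndnf*, *Calb2*, *Crh* and *Reln*, named after their values were seen. *Calb2*, a calcium-binding protein of interneurons in cortex and bulb, reached 103 CPM in KO replicate 1, against 10.2 CPM in WT replicate 2.

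Markers of the olfactory bulb and of neuroblasts had the same extreme libraries as the factors. All 10 of 10 olfactory bulb markers tested had KO replicate 1 highest and WT replicate 2 lowest, and their summed level was 874, 444 and 376 CPM in KO, against 472, 295 and 390 CPM in WT. *Th*, the dopamine synthesis enzyme present in periglomerular cells of the bulb, was at 39.1, 9.55 and 5.86 CPM in KO, against 9.48, 1.15 and 4.47 CPM in WT. *Cdhr1*, a cadherin of mitral and tufted cells, reached 112 CPM in KO replicate 1 and was down to 9.25 CPM in WT replicate 2, with 17.3 to 30.5 CPM in the other 4. *Eomes*, a transcription factor of the same bulb cells that was picked out after its values were seen, had 0 fragments in WT replicate 2 and 344 in KO replicate 1, and it was the only 1 of the 10 at 0 in any library. The part of these markers in the result was not tested. Of the 8 neuroblast markers, 7 had KO replicate 1 highest and 7 had WT replicate 2 lowest, with summed levels of 246, 142 and 132 CPM in KO, against 120, 86.2 and 142 CPM in WT. *Dcx*, a microtubule protein of migrating neuroblasts, was at 137, 82.2 and 75.7 CPM in KO, against 61.7, 47.1 and 81.9 CPM in WT.

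The 10 striatal markers were highest as a sum in KO replicate 2 (460 CPM) and WT replicate 3 (435 CPM), with 355 CPM in KO replicate 1, and 1 of 10 had KO replicate 1 highest (*Penk*, an opioid peptide precursor). Their log2 fold change was above 0 for 10 of 10, against 51.9% of all tested genes, with a median of 0.27, and of 0.46 without KO replicate 1. It was also above 0 for 10 of 10 olfactory bulb, 8 of 8 neuroblast, 8 of 8 astrocyte and 5 of 5 GABA genes. This count was 1 of 10 for cortical excitatory and 6 of 14 for cortical interneuron markers. The 10 markers of cortical excitatory neurons summed to 1702, 2120 and 2142 CPM in KO and to 2340, 2351 and 2048 CPM in WT, and 8 of 10 were lowest in KO replicate 1. This sum was lowest in KO replicate 1 and highest in WT replicate 2, the reverse of the 8 factors. Summed astrocyte markers were at 5212, 4726 and 5156 CPM in KO, against 5180, 4463 and 4981 CPM in WT, so the sum was highest in KO replicate 1 and lowest in WT replicate 2 over a narrow range, while 2 of 8 astrocyte markers had KO replicate 1 highest and 5 of 8 had WT replicate 2 lowest. Summed meningeal markers were lowest in WT replicate 2 (55.6 CPM) and highest in WT replicate 1 (121 CPM), with 90.1 to 95.9 CPM in KO, and 7 of 8 were lowest in WT replicate 2. The part of these lists in the result was not tested. *Ttr*, the defining choroid plexus gene, was at 26.8 CPM in WT replicate 2 and at no more than 2.12 CPM elsewhere. Of the 6 tested choroid plexus markers, 4 were highest in WT replicate 2, whereas the water channel gene *Aqp1* was at 9.67 CPM in KO replicate 1 and at 0.327 CPM in WT replicate 2, the same extreme libraries as the factors. Of the septal cholinergic markers, *Chat*, the enzyme that makes acetylcholine, was at 0.0784 to 0.838 CPM over the 6 libraries, and *Trpc4*, a cation channel gene, made up most of the summed level of 18.8 to 23.3 CPM.

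The genes of most similar pattern were sought among 13588 protein-coding genes of at least 1 CPM, by the root mean square difference between a gene's deviations in the 6 libraries and the mean deviations of the 8 factors. The closest 8 were *Filip1l*, *Myo16*, *Map3k1*, *Sall1*, *Inpp5j*, *Isoc1*, *Pcp4l1* and *Alx4*, at 0.0645 to 0.116, where the median gene was at 0.587. *Sall1*, a zinc finger transcription factor, was at 69.1, 32.7 and 31.9 CPM in KO, against 31.7, 22.1 and 31.3 CPM in WT. *Myo16*, an unconventional myosin, was at 94.4, 47.1 and 37.5 CPM in KO, against 41.0, 26.7 and 37.1 CPM in WT. Both had the same highest and lowest libraries as the 8 factors. The 6 libraries are the same pieces of tissue for every gene, so likeness over them is a description.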

How the data were processed

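Per the labels, prefrontal cortex RNA from 3 KO and 3 WT samples was made into stranded polyA libraries. The authors aligned reads with STAR 2.7.9a and deposited raw fragment counts per gene from featureCounts 1.6.0, checked with FastQC 0.11.8. The labels give GRCm39 and the file headers reverse-stranded counting of fragments over exons of GENCODE M31, where the study's methods name an older build. Gene symbols were matched by ID for 52073 of 56923 genes. Coordinates and exon lengths come from the files, and promoter sequences from RefSeq on GRCm38.p6 only. The members and gene lists were chosen with earlier results of these data known.

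Genes with at least 6 fragments in at least 1 library were kept, as in the study. Counts were scaled by TMM (edgeR 4.0.16) and fitted with voom in limma 3.58.1 (R 4.3.3), two-sided, with Benjamini-Hochberg adjustment over all tested genes and no covariate. CPM is per 1000000 TMM-scaled fragments. On simulated data over 18539 genes the fit recovered 96% of 2-fold and 100% of 4-fold changes. The changed genes were drawn at random above a minimum level, each with its own spread. The 8 factors spread more within groups than most genes of their level, so this recovery does not apply to them. Named list genes were the 4 of highest mean CPM and those at an unadjusted p-value under 0.05 in limma-voom, and named genes of similar pattern were the 8 closest. Exceptions were *Ndnf*, *Calb2*, *Crh* and *Eomes*, which were named after their values were seen. DESeq2 1.42.0, other scalings and filters, a replicate block, covariates and leaving out libraries were tried. A gene of the lists that met this rule is not reported here by name.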

Additional observations from a re-analysis of the deposited data

How the results depend on the processing

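Over 16 other settings of the analysis the direction of 6 of the 8 factors held. The 2 exceptions were *Dlx2* (-0.10) and *Dlx6* (-0.07) without KO replicate 1. Leaving out 1 library gave log2 fold changes of 0.30 to 0.97 for *Dlx1*, -0.10 to 0.73 for *Dlx2*, 0.37 to 1.19 for *Dlx5*, -0.07 to 0.70 for *Dlx6*, 0.30 to 1.18 for *Sp9*, 0.17 to 0.74 for *Pax6*, 0.30 to 0.96 for *Tshz1* and 0.33 to 0.87 for *Zic1*. The median over the factors was 0.30 to 0.90 under these and 0.60 to 0.74 under the others, and 6 to 8 were above 0. Without KO replicate 1 and WT replicate 2 together, chosen after seeing the data, the values were 0.10 for *Dlx1*, -0.39 for *Dlx2*, 0.15 for *Dlx5*, -0.27 for *Dlx6*, 0.014 for *Sp9*, -0.065 for *Pax6*, 0.070 for *Tshz1* and 0.15 for *Zic1*, with a median of 0.042 and 5 above 0. The covariate for Y-linked expression gave *Zic1* a value of 0.69, at an adjusted p-value in limma-voom of 0.0245. Genes past the adjusted threshold numbered 0 in limma-voom, 1 with DESeq2, 23 with the Y-linked covariate, 1 without both libraries and 0 to 1 without 1 library. At an unadjusted p-value under 0.05 they numbered 902 to 2115, and 782 to 2239 without 1 library. The cause of these differences was not tested. The labels do not say that a replicate number marks a shared litter, batch or day. The libraries numbered 1 were the ones high in *Xist* in both groups. Deviations of same-numbered libraries from the group means had correlations across genes of 0.23, 0.05 and -0.01, and 2 of 6 libraries correlated best with their own number. With a replicate block *Dlx1* was at 0.80, the median was 0.71, 0 genes passed in limma-voom and 1693 had an unadjusted p-value under 0.05. The factors with the fewest fragments, *Dlx5*, *Dlx6* and *Sp9*, had as few as 42 to 47 in a library, which limits their precision. Of the 8 genes of similar pattern, 7 were the same at a minimum of 5 CPM.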
